A study of Mus musculus with 10 samples.

Results

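The gamma crystallins are structural proteins of the lens. Their mRNAs were followed here through 8 genes, taken by symbol from the deposited mRNA table: Cryga, Crygb, Crygc, Crygd, Cryge, Crygf, Crygn and Crygs. All 8 were present among the 24736 gene symbols of the table, none was at 0 in any library, and all 8 passed the filter on low counts. The libraries were made from eyeballs of female mice of the Kunming (KM) stock, 4 weeks old, with day 14 in the sample titles. Of the 5 mRNA libraries, 3 came from mice exposed to blue light from an 18 W lamp, within a dark enclosure (called blue A, B and C) and 2 from mice exposed to natural light (control A and B). Nothing in the labels states that each library is a different animal, or whether eyes were pooled, and the p-values accordingly describe only how much these libraries scatter, which may be technical.

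Gamma crystallins belong, with the beta crystallins, to a superfamily of compact proteins folded from Greek key motifs, and they are packed at very high concentration in lens fibre cells, where they give the lens its refractive power. Fibre cells make them while they differentiate and then lose their nuclei, so that the protein of the lens core is never replaced. Inherited changes in gamma crystallin genes cause cataract in mice and in humans. Crygs is the member whose expression continues in the adult lens cortex, and Crygn encodes a protein intermediate between beta and gamma crystallins.

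Cryga to Crygf are similar copies that lie together on chromosome 1 (GRCm38, called mm10 in the submitters' processing notes). Cryge, Crygd, Crygc, Crygb and Cryga lie on the minus strand between 65048555 and 65103363, a stretch of 54.8 kb, while Crygf lies on the plus strand 823 kb further on, from 65926522 to 65928311, with 9 other RefSeq genes between. Crygn is on chromosome 5 (24751002 to 24757848) and Crygs on chromosome 16 (22805203 to 22811410), both on the minus strand. The RefSeq table lists no gene overlapping Cryga to Crygf. It lists Gm33591 over Crygn and Gm30416 over Crygs, and neither has a row of its own in the deposited table. Each value below is therefore a count for a gene symbol, and reads that match more than one copy could have been divided between symbols in a way the files do not record.

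The promoters of the clustered copies are printed to show how alike these stretches are. The transcripts themselves were not compared. RefSeq (GRCm38.p6) gave an entry for all 8 members. The lines hold the 90 bases before the transcription start that the RefSeq promoter table gives for each gene, 5′ to 3′ on the gene's own strand: chr1:65103364-65103453 for Cryga, chr1:65082291-65082380 for Crygb, chr1:65073533-65073622 for Crygc, chr1:65063441-65063530 for Crygd and chr1:65051164-65051253 for Cryge on the minus strand, and chr1:65926432-65926521 for Crygf on the plus strand. For Cryge this start lies 653 bases inside the gene's annotated span, so that the printed bases are within that span, while for the other 7 members it is the outer end of the gene. Capitals mark the letters TATATA, a form of the TATA box core, and the run CTTTTGTG.
Cryga: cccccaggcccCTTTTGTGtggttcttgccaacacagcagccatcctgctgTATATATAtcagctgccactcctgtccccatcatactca
Crygb: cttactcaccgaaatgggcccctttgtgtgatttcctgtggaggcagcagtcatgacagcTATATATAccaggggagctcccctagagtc
Crygc: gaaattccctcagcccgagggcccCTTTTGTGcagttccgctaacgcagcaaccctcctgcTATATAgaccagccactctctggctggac
Crygd: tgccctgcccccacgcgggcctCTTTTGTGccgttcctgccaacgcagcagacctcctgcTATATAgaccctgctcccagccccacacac
Cryge: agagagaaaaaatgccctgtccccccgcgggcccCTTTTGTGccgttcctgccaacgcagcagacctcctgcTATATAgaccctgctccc
Crygf: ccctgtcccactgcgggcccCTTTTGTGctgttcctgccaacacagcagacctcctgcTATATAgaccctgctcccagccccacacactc

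Over the 250 bases before the start, Cryge and Crygf were identical at 89.5% of aligned positions. The other 14 pairs of clustered copies were identical at 52.2% to 67.8%, with Crygd and Crygf the next most alike. No unrelated promoters were aligned for comparison. TATATA, searched on both strands with overlapping matches kept, was found in the 250 bases of 7 of the 8 members, all but Crygs, and in 5.25% of all 32851 RefSeq promoters of that length. Other forms of the TATA box were not searched, and 1 of them, TATAAA, stands in the 90 bases before the Crygs start. CTTTTGTG, picked after the sequences were read, was found in 5 of 8 members (Cryga, Crygc, Crygd, Cryge and Crygf) and in 1.21% of all promoters. TGCTGA, the core letters recognised by large MAF factors, was found in Cryga, Crygc, Crygn and Crygs and in 16.1% of all promoters. Matches describe these windows only, and absence of the letters says nothing about a factor.

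The first question was whether the members' mRNA differed between eyes under blue light and eyes under natural light. No difference beyond the spread between libraries was found: none of the 8 genes passed the test, and their summed level was 17766 ± 1631 CPM under blue light and 17675 ± 463 CPM under natural light (SD, n = 3 and n = 2). CPM here are estimated counts scaled to a common library total after edgeR's TMM scaling, which evens out differences in library composition, and they are not divided by transcript length, so levels are compared between libraries and not between genes. The summed level was 15889, 18841.5 and 18567 CPM in blue A, B and C, against 18003 and 17348 CPM in control A and B. The blue libraries thus held both the lowest and the highest sum, with the controls between them, and the ratio of the group means was 1.01. As a share of all estimated counts, before any scaling, the 8 genes made up 1.62%, 1.97% and 1.81% of blue A, B and C and 1.86% and 1.61% of control A and B.

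Over the whole table, the quasi-likelihood test of edgeR, adjusted by the Benjamini-Hochberg method, called 421 of 18988 tested genes at an adjusted p under 0.05, which is 2.22%. Of the gamma crystallins it called 0 of 8, with 0 at an unadjusted p under 0.05 against 16.3% of all tested genes. DESeq2 and limma-voom also called 0 of the 8, where they called 9.67% and 2.41% of all genes. The 2 groups of libraries did not overlap for 0 of the 8 members, against 35.6% of all tested genes. Adjusted p-values of the members in edgeR ran from 0.450 to 0.956. The log2 fold change (log2FC, blue light minus natural light) was positive for 3 members and negative for 5, with a median of -0.048, beside a median of -0.0056 over all tested genes. The total of 421 fell when a blue library was left out, to 311 genes without blue A, 277 without blue B and 11 without blue C. The members' count was 0 in each of these fits. Leaving out a library also leaves fewer libraries to test, and its part in the fall was not tested.

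**Figure D1:**
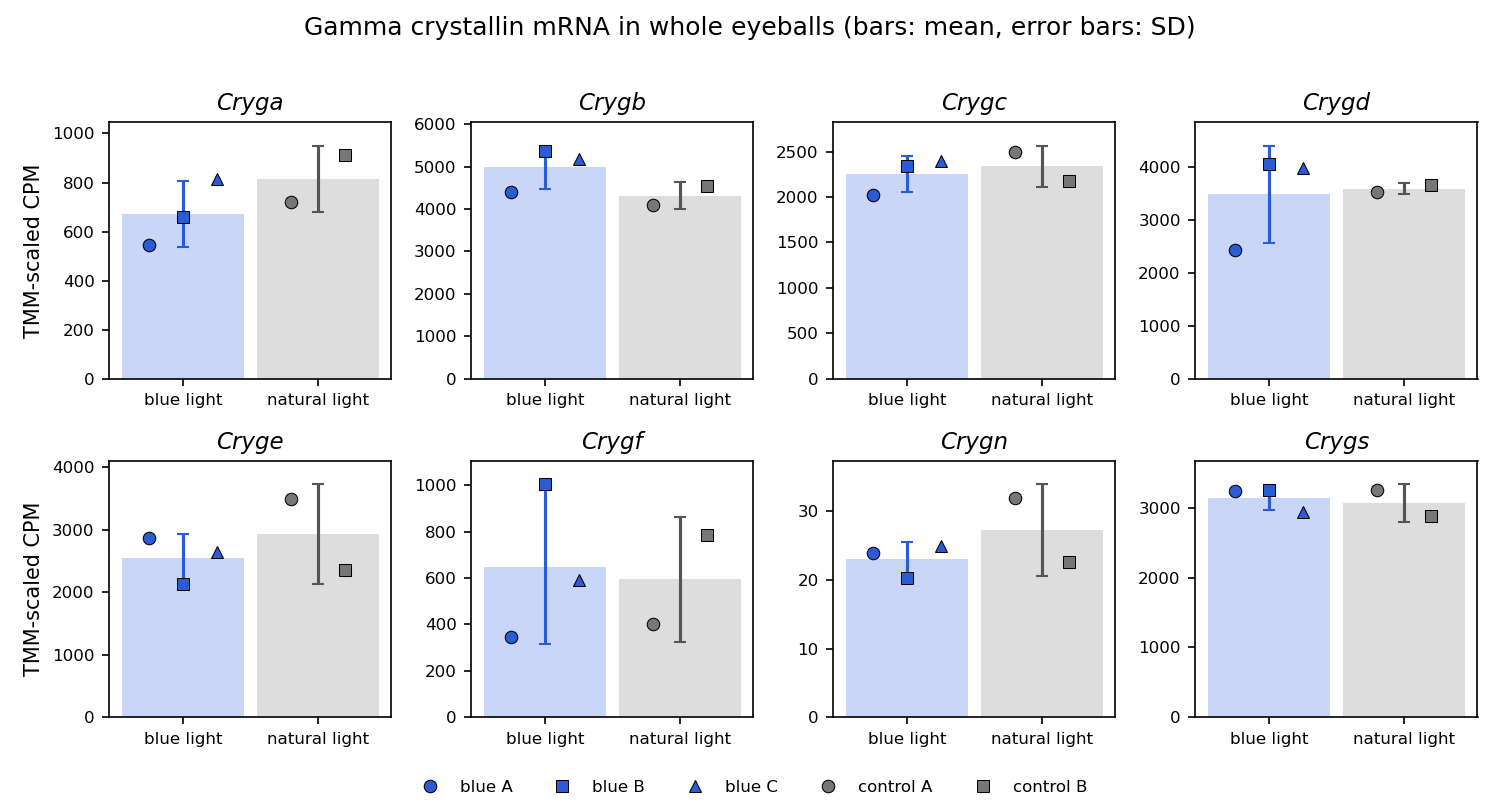
Level of each gamma crystallin in TMM-scaled CPM (vertical axes, starting at 0) in 3 blue light and 2 natural light libraries; bars are group means, error bars the SD and points single libraries. The points of both groups overlap in all 8 panels, and the widest scatter is that of Crygf, from 348 CPM in blue A to 1003 CPM in blue B.

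Among the clustered copies, Crygb had 4412, 5371 and 5180.3 CPM in blue A, B and C, against 4086 and 4549 CPM in control A and B. Blue B and C stood above both controls and blue A between them. Its log2FC of 0.21 (standard error, SE, 0.12; adjusted p = 0.450 in edgeR) was the one with the smallest p of the family, with a 95% interval of -0.08 to 0.50. Cryga had 547, 658 and 814 CPM in the blue libraries, against 719 and 911 CPM in the controls. Blue A and B lay below both controls and blue C between them, and the log2FC was -0.28 (SE 0.19, adjusted p = 0.540 in edgeR). It was -0.095 without control B and -0.13 without blue A, against -0.44 without blue C. Crygb and Cryga were the 2 members whose sign held under all 13 alternatives that were tried.

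Crygc, the steadiest of the clustered copies within the blue group, had 2024, 2346 and 2396 CPM in blue A, B and C, against 2500.5 and 2178 CPM in control A and B. Its log2FC was -0.05 (SE 0.11), with an interval of -0.33 to 0.22. Crygd had 2427, 4049 and 3984 CPM in the blue libraries, against 3520.2 and 3667 CPM in the controls. Blue A was far below the other 4 libraries, which lay between 3520.2 and 4049 CPM, and the log2FC of -0.04 (SE 0.23) became 0.18 without blue A.

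Cryge had 2867, 2139 and 2641 CPM in blue A, B and C, against 3488 and 2361 CPM in control A and B. The controls differed from each other more than the group means did, and the log2FC of -0.20 (SE 0.20) became 0.14 without control A. Crygf had 348, 1003 and 590 CPM in the blue libraries, against 404 and 784 CPM in the controls. Both groups held a low and a high library, and the log2FC of 0.12 had the largest SE of the family, 0.48. Its interval ran from -1.06 to 1.31, or from 0.479-fold to 2.47-fold, so that 2-fold changes in both directions lie within it.

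Of the members outside the cluster, Crygs had 3239, 3255 and 2937 CPM in blue A, B and C, against 3254 and 2876 CPM in control A and B. These were the steadiest values of the family, and the log2FC of 0.04 (SE 0.096) had the narrowest interval, from -0.20 to 0.27. Crygn had 23.9, 20.2 and 24.8 CPM in the blue libraries, against 31.9 and 22.5 CPM in the controls. Control A alone stood above the rest, the log2FC was -0.24 (SE 0.18), and without control A it was 0.05. For 7 of the 8 members, all but Crygf, the 95% interval of the log2FC lay within 1 unit of 0. These intervals come from edgeR's standard errors and restate its test.

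**Figure D2:**
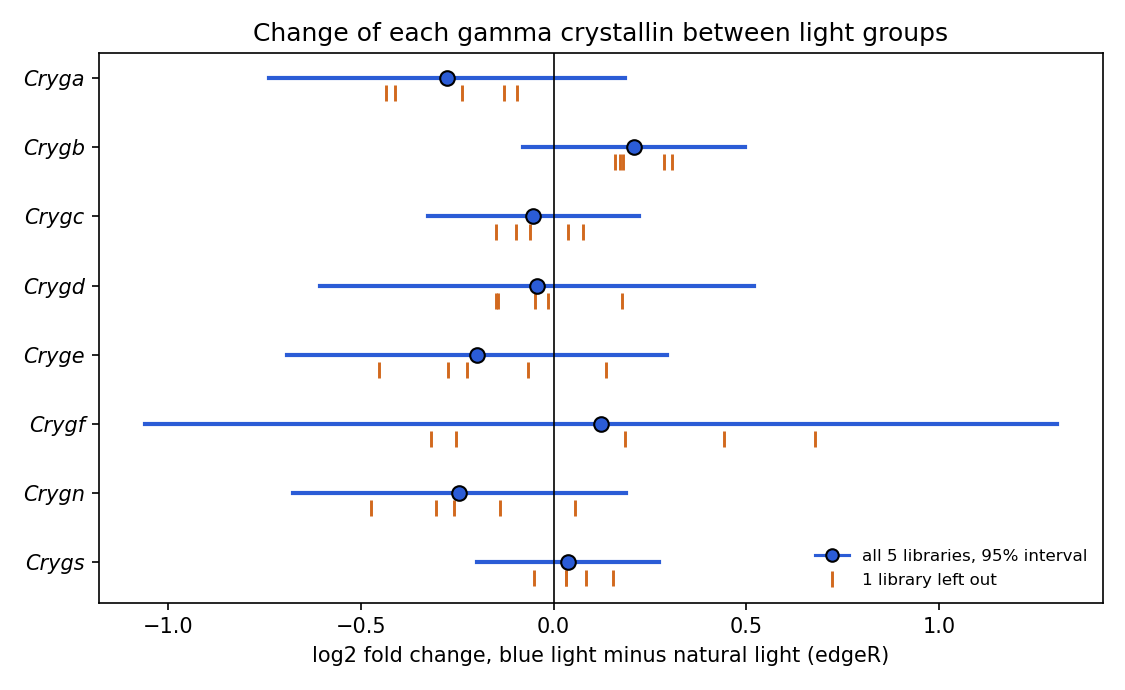
Log2 fold change of each gamma crystallin, blue light minus natural light (horizontal axis), with its 95% interval from edgeR (blue) and the 5 values with 1 library left out (orange ticks). All 8 intervals cross 0, and that of Crygf is the widest, from -1.06 to 1.31.

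No difference between the groups passed the test, but single libraries stood apart from others of their group, and some copies ran in the same order over the libraries while others ran in opposite order. Crygb, Crygd and Crygf were each lowest in blue A and highest in blue B, and lower in control A than in control B. The 3 pairs they form were the only ones of 28 with the same order within both groups. How often pairs of other genes share an order, or run in opposite order, was not counted, so these counts are only a description. To compare spreads, the highest level over the lowest within a group was set beside that of the 1943 genes with a mean of at least 100 CPM, whose median was 1.12-fold over the 3 blue libraries and 1.08-fold over the 2 controls. Crygf spanned 2.88-fold under blue light and 1.94-fold under natural light, wider than 99.0% and 98.9% of these genes. Cryge spanned 1.34-fold and 1.48-fold, wider than 87.6% and 97.1%. Crygd spanned 1.67-fold and 1.04-fold, wider than 95.8% under blue light and 28.6% under natural light, where both libraries were close. Crygs spanned 1.11-fold and 1.13-fold, wider than 45.0% and 72.4%. Among the 8 alpha and beta crystallins no gene spanned more than 1.35-fold under blue light or 1.31-fold under natural light.

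Cryge and Crygf, the pair with the most alike promoters, ran in opposite order. Within the blue group Cryge was highest in A and lowest in B while Crygf was lowest in A and highest in B, and within the controls Cryge was higher in A and Crygf in B. The ratio of Cryge to Crygf was 8.24, 2.13 and 4.48 in blue A, B and C, against 8.63 and 3.01 in control A and B. It spanned 4.05-fold over the 5 libraries, the widest of all 28 pairs of members. The 2 genes summed to 3215, 3142 and 3231 CPM in the blue libraries, against 3892 and 3145 CPM in the controls. Over the blue libraries that sum spanned 1.03-fold, and none of the other 27 pairs gave a steadier one. Over the 2 controls that sum spanned 1.24-fold, and most of the other pairs gave a steadier one there. In CPM, blue A had 729 more of Cryge than blue B and blue B had 655 more of Crygf than blue A. The match was looser between the controls, where control A had 1126 more of Cryge and control B 380 more of Crygf. This pair was singled out after its values were seen. Opposite order within both groups was also found for Cryge with Crygb and for Cryge with Crygd, so 3 of 28 pairs showed it. Because Crygb, Crygd and Crygf share the same order, these 3 pairs are not separate observations. Whether reads shared between copies had a part in this was not tested.

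**Figure D3:**
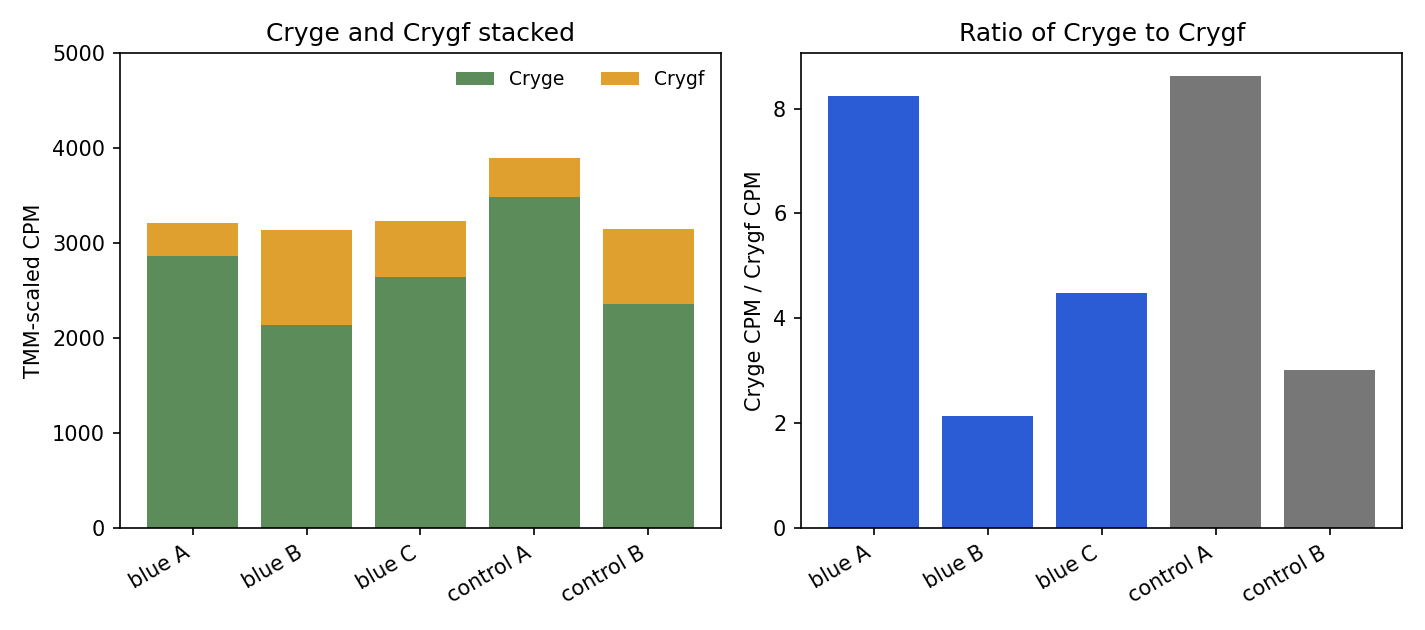
Left, TMM-scaled CPM of Cryge with Crygf stacked on it, and right, the ratio of the 2, in each of 3 blue light (blue bars) and 2 natural light libraries (grey bars). The stacks are 3142 to 3231 CPM high in the blue libraries while the ratio runs from 2.13 to 8.24. In control A and B the stacks are 3892 and 3145 CPM high, with ratios of 8.63 and 3.01.

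The make-up of the family, as each member's share of its summed CPM, does not depend on scaling between libraries. Crygb made up 27.8%, 28.5% and 27.9% of the sum in blue A, B and C, against 22.7% and 26.2% in control A and B. It was the only one of 8 shares whose groups did not overlap. The difference gave p = 0.2 in an exact permutation test, made two-sided by doubling the smaller tail (0.96 adjusted over the 8 shares). That is the smallest p a doubled tail allows with 3 against 2 libraries. Crygc varied little, with 12.7%, 12.5% and 12.9% in the blue libraries, against 13.9% and 12.6% in the controls. Crygd gave 15.3%, 21.5% and 21.5% in blue A, B and C, against 19.6% and 21.1% in control A and B, with blue A again apart. Of all 28 ratios between 2 members, 3 had groups that did not overlap, and each of these had Crygb as one of the pair (with Cryga, Crygc and Crygd). For CPM values, the groups did not overlap for 35.6% of all tested genes. No such percentage was taken for shares or ratios of other genes, so these counts do not set Crygb apart. The ratio of Crygb to Cryga was 8.07, 8.16 and 6.36 in the blue libraries, against 5.68 and 4.99 in the controls.

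The second question was how the members stood beside other genes of the lens. The alpha crystallins are small heat shock proteins that act as chaperones, and the beta crystallins are the oligomeric relatives of the gamma crystallins. Summed over 8 genes, alpha and beta crystallins had 36229 ± 1468 CPM under blue light and 34707 ± 37.2 CPM under natural light. The alpha part was 13114 ± 814 CPM under blue light and 13563 ± 1200 CPM under natural light. The beta part was 23116 ± 654 and 21144 ± 1163 CPM, with every blue library above both controls. Neither part was tested as a sum. The ratio of the gamma sum to the alpha and beta sum was 0.437, 0.543 and 0.493 in blue A, B and C, against 0.518 and 0.5002 in control A and B. Blue A and B lay at either end of the range and the controls between them, with means of 0.491 ± 0.0532 under blue light and 0.509 ± 0.0128 under natural light. Blue A, the library with the least Cryga, Crygc, Crygd and Crygf, was not low in alpha and beta crystallins, which stood at 36372 CPM there.

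edgeR called 0 of the 8 alpha and beta crystallins (1 had an unadjusted p under 0.05), DESeq2 called 1 and limma-voom 0, and their median log2FC was 0.028. That gene was Cryba2, with 1468, 1400.3 and 1494 CPM in the blue libraries, against 1148 and 1294 CPM in the controls (log2FC 0.25, adjusted p = 0.224 in edgeR and 0.0254 in DESeq2). Crybb2 had a log2FC of 0.25 (adjusted p = 0.396 in edgeR), Crybb3 0.20 and Crybb1 0.079. These values moved with single libraries, with 0.12 for Crybb2 without control A and 0.42 without control B. Crybb3 was at 0.43 without control A, while control B left out gave 0.028 and blue C left out gave 0.052. Of 16 other lens fibre genes edgeR called 0 (2 had an unadjusted p under 0.05), DESeq2 1 and limma-voom 0, with a median of 0.062. Tdrd7, an RNA granule protein whose loss causes cataract, had 327, 302 and 342 CPM under blue light, against 395 and 412 CPM under natural light (log2FC -0.32, adjusted p = 0.125 in edgeR and 0.0115 in DESeq2). The RNA-binding protein Caprin2 had a log2FC of 0.38, the fibre water channel Mip 0.16 and the inhibitor of apoptosis Birc7 0.20, with adjusted p of 0.269, 0.341 and 0.359 in edgeR.

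Of 12 transcription factors known to act on crystallin genes edgeR called 0 (3 had an unadjusted p under 0.05), DESeq2 2 and limma-voom 0. Of these, 11 had a positive log2FC, with a median of 0.19, and the groups were apart for 5, beside 35.6% over the whole table. Pax6, needed to form the lens and also active in retinal neurons, had 323, 300.2 and 303 CPM in the blue libraries, against 247 and 254 CPM in the controls (log2FC 0.30, adjusted p = 0.107 in edgeR and 0.000160 in DESeq2). Sox2 had a log2FC of 0.45 (adjusted p = 0.123 in edgeR and 0.00570 in DESeq2). Sox1, a factor needed for gamma crystallin expression in lens fibres of mice, had 18.6, 16.3 and 19.0 CPM under blue light, against 12.9 and 15.5 CPM under natural light (log2FC 0.34, adjusted p = 0.288 in edgeR). Pitx3 had a log2FC of 0.42 (adjusted p = 0.315). Maf, the large MAF factor of lens fibres, had 0.15 (adjusted p = 0.633), and was named after its value was seen.

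An eyeball library mixes lens, retina, cornea and attached tissue, and in such a mixture fewer cells of a type and less RNA per cell cannot be told apart. The lens was present in every library, with all 8 alpha and beta crystallins and all 16 fibre genes above 0 throughout. All 14 rod photoreceptor markers had a negative log2FC, with a median of -1.61. The groups were apart for all 14, beside 35.6% of all tested genes. Of these markers edgeR called 11 (14 had an unadjusted p under 0.05), limma-voom 11 and DESeq2 14. Of all genes edgeR called 2.22%, limma-voom 2.41% and DESeq2 9.67%. With 1 library left out, the sign was negative for all 14 in each fit, and edgeR called 11 of them when blue A was left out, 13 for blue B and 0 for blue C, for control A and for control B. Their summed level was 5320.4 to 9669.8 CPM under blue light and 25939 to 27494 CPM under natural light, while the gamma sum showed no such gap. Of 12 skeletal muscle markers edgeR called 0 (0 had an unadjusted p under 0.05), and DESeq2 and limma-voom 0. They summed to 1540.3, 801 and 829.99 CPM in blue A, B and C, against 748 and 1594 CPM in control A and B. Blue A, lowest in the scaled gamma sum, was thus one of the 2 libraries with the most muscle RNA. The other, control B, had a gamma sum of 17348 CPM, between those of blue A and control A. Before scaling, the gamma share was about as low in control B (1.61%) as in blue A (1.62%). The part of muscle RNA in the gamma values was not tested. Corneal and conjunctival markers summed to 5849.9 to 7218 CPM under blue light and 5583 to 6774 CPM under natural light, lens epithelium markers to 581 to 649 and 494 to 540 CPM, and red blood cell markers to 43.0 to 73.6 and 46.9 to 80.5 CPM. In these 3 lists edgeR and limma-voom called 0 genes (2 lens epithelium and 2 red blood cell markers had an unadjusted p under 0.05), and DESeq2 called 1 lens epithelium marker. Of 10 adipocyte markers edgeR called 1 (3 had an unadjusted p under 0.05), DESeq2 3 and limma-voom 0. The groups were apart for 6 of them, beside 35.6% of all tested genes, among them Cidec and Pck1, at or near 0 CPM in both controls. The 10 markers summed to 51.2 to 67.3 CPM under blue light and 42.8 to 50.3 CPM under natural light. The called gene was Cfd, which encodes adipsin and was named after its value was seen, with 2.01, 1.14 and 2.22 CPM in blue A, B and C, against 0.287 and 0.321 CPM in control A and B (log2FC 2.55, SE 0.42, adjusted p = 0.0468 in edgeR). With blue B left out 1 adipocyte marker was called, and with any of the other 4 libraries left out 0 were. Hba-a1, Hba-a2, Hbb-bs and Hbb-bt among the red blood cell markers and Cidec, Lep and Pck1 among the adipocyte markers were at 0 in at least 1 library.

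**Figure D4:**
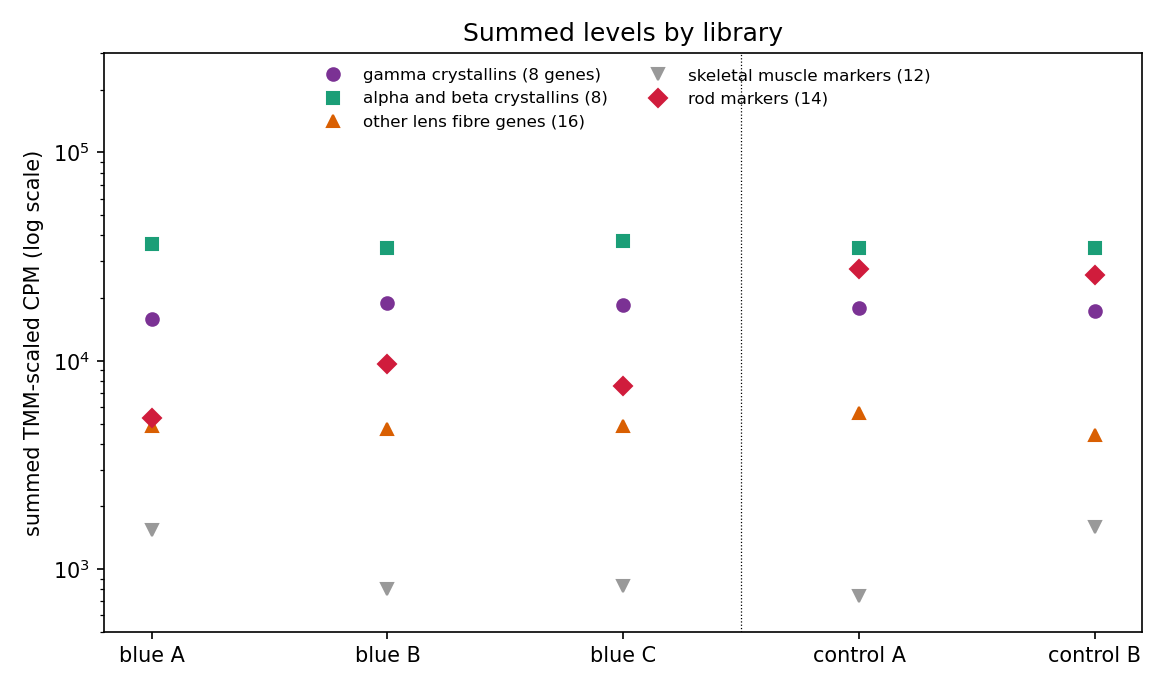
Summed TMM-scaled CPM of 5 gene lists (vertical axis, log scale) in each of the 3 blue light and 2 natural light libraries. Gamma crystallins stay between 15889 and 18841.5 CPM in all 5 libraries, whereas rod markers lie at 5320.4 to 9669.8 CPM under blue light and at 25939 to 27494 CPM under natural light.

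Lastly, the 18980 other tested genes were ranked by how closely their profile over the 5 libraries followed that of the gamma sum, as the root mean square difference of centred log2 CPM. The nearest was Cacna1c, a subunit of the L-type calcium channel, at 0.011, with 42.3, 50.3 and 49.6 CPM in the blue libraries, against 48.9 and 46.8 CPM in the controls. Cnot9, Gars, Atcay, Smim7, Gm15446, 4933407K13Rik, Cdh24, Cnbp and Dbndd1 followed, at 0.014 to 0.024, beside a median of 0.21 over all ranked genes. None of the 10 is on a lens list used here. The other crystallins ranked behind many genes: 11.2% of the ranked genes were nearer than Cryba1, the nearest of the 8 alpha and beta crystallins, and 50% were nearer than Crybb2, the farthest. Of the members themselves Crygc was nearest to the sum, at 0.056, and Crygf farthest, at 0.52. The same 10 genes came first under each of 3 other scalings, but with 1 library left out at most 5 of them stayed in the first 10. That number was 0 with blue A left out, 5 for blue B, 3 for blue C, 3 for control A and 4 for control B.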

How the data were processed

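Members and gene lists were chosen with earlier results of these data known. The authors deposited 1 mRNA table, matched to samples by title, whose values were read as estimated counts of each gene symbol without normalisation; the miRNA table was not used here. Per the submitters' processing notes, bcl2fastq 2.0, HISAT2, StringTie, DESeq2, limma and mm10 were used, without stated roles, and per the labels' protocols ribosomal RNA was removed with probes. Whether counting used strand, and how reads matching several copies were treated, is not given in these sources. Totals were 87071487 to 107660103. Low values are uneven (1107 equal 5, 580 equal 6), so no counting intervals are given. The estimated counts, already whole, were tested with edgeR 4.0.16 (R 4.3.3): filterByExpr, TMM, quasi-likelihood F-test without a block, Benjamini-Hochberg adjustment over 18988 genes, threshold 0.05. SE is |log2FC| divided by the square root of F. Sums and ratios carry no p, except the shares. Alternatives were DESeq2 1.42.0, limma-voom (limma 3.58.1), 3 other scalings, 2 other filters, the letter as a block and leaving out each library. Named genes were all members, the 10 nearest profiles and up to 4 genes with the smallest p of each of 3 lens lists, without exceptions other than those stated. Promoters were aligned pairwise (match 1, mismatch -1, gap -3 and -0.5, free ends). The pipeline was tested on simulated counts.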

Additional observations from a re-analysis of the deposited data

How the results depend on the processing

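The count of called gamma crystallins was 0 under all 13 alternatives, and the lowest adjusted p of a member was 0.273. Of 104 member values under alternatives, 95 kept their direction and 9 turned. With library totals as the only scaling, Crygd turned to 0.0038. With 1 library left out, log2FC ran from -0.44 to -0.095 for Cryga, 0.16 to 0.31 for Crygb, -0.15 to 0.076 for Crygc, -0.15 to 0.18 for Crygd, -0.45 to 0.14 for Cryge, -0.32 to 0.68 for Crygf, -0.47 to 0.055 for Crygn, -0.050 to 0.15 for Crygs, 0.12 to 0.42 for Crybb2, 0.028 to 0.43 for Crybb3 and -0.024 to 0.16 for Crybb1; the cause was not tested. The log2 ratio of group means of the gamma sum was 0.0074, ran from -0.064 to 0.099 under the other settings, and was -0.14 for Cryge and Crygf alone, a sum chosen after seeing the data. Genes called over the whole table numbered 274 with library totals, 1729 in DESeq2 and 0 to 311 with 1 library left out, where the spread of a lone control was taken from the blue libraries. With the letter as a replicate block, edgeR called 0 genes, with 1455 at an unadjusted p under 0.05, and Crybb1 was at -0.024. Deviations from the group mean, correlated across genes between libraries sharing a letter, gave -0.18 for A and -0.15 for B. With only 2 controls, their deviations mirror each other, so these correlations cannot settle whether the letters pair libraries. The labels do not say that they do, and the main test used no block. With 3 against 2 libraries, the interval of Crygf ran from 0.479-fold to 2.47-fold, and it is not a limit of detection.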

Other observations

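Grifin, a lens galectin-related protein, varied between libraries more than any other gene on the lens lists. It had 592, 153 and 631 CPM in blue A, B and C, against 548 and 127 CPM in control A and B. It spanned 4.14-fold under blue light and 4.32-fold under natural light, wider than 99.7% and 99.9% of the genes with a mean of at least 100 CPM. It was low in blue B and control B, the library of each group with the most Crygf and with the least Cryge and Crygn. Within the blue group it was highest in C, while Crygf was lowest in A. A link to any member was not tested. Lgsn (lengsin), a lens relative of glutamine synthetase, had 240.3, 719 and 252 CPM in the blue libraries, against 695 and 666 CPM in the controls, a span of 2.99-fold under blue light and 1.04-fold under natural light. Both genes were picked after their values were seen, and neither passed the test between groups (adjusted p of 0.843 for Grifin and 0.521 for Lgsn in edgeR).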
